A study of Mus musculus with 2 samples.

Results

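Epidermal kallikrein proteases are secreted serine proteases of the outer skin, and 9 of their genes (Klk5, Klk6, Klk7, Klk8, Klk9, Klk10, Klk11, Klk13 and Klk14) were examined together with St14, the gene of the membrane protease matriptase. These 10 members were taken by symbol, with no threshold on their values. They and the gene lists below were chosen with earlier results of these data known. All 10 were found among the 34745 genes of the table, and all 10 were among the 15240 genes measured, meaning those with at least 1 CPM (count scaled to a fixed library total) in either library. RNA came from mouse ear skin in 2 bulk libraries, 1 labelled KAT8-cKO, a conditional knockout of the histone acetyltransferase gene Kat8, and 1 labelled WT. All ears had been treated daily with 30 mg of 5% imiquimod cream for 3 days and were taken on day 4. Imiquimod activates the receptor TLR7 and produces a psoriasis-like inflammation in mouse skin. Which promoter or cell type the deletion depends on, the strain, age and sex of the mice, and how many animals stand behind each library are not stated in the labels. With 1 library per group there was no replicate spread and no test, so every difference below describes these 2 libraries, and intervals cover counting error only.

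Kallikreins are made by keratinocytes of the upper, granular layer as inactive precursors and are released into the cornified layer. There they cut the proteins of corneodesmosomes, the junctions that hold dead cells together, so that cells can be shed. Matriptase acts upstream of them in mouse epidermis, LEKTI (encoded by Spink5) blocks several of them, and HAI-1 (encoded by Spint1) blocks matriptase. Loss of LEKTI causes Netherton syndrome, in which unchecked protease activity damages the skin barrier.

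The libraries held 13727524 counts (labelled KAT8-cKO) and 12179608 counts (labelled WT). The targeted gene, Kat8, had 351 counts in the library labelled KAT8-cKO and 219 in the library labelled WT, a CPM ratio of 1.27 (95% interval 1.07 to 1.51), so it was not lower, and 1 value per gene covers cells and exons outside a conditional deletion. Its exons also overlap those of Prss8, so both libraries are named by their labels throughout. Xist had 6 and 11891 counts in the library labelled KAT8-cKO and the library labelled WT. The Y-linked genes Eif2s3y, Kdm5d and Ddx3y had 838 and 0, 305 and 0, and 635 and 5 counts in the same order. The libraries thus differed in sex by these transcripts, so sex and genotype label cannot be told apart for any difference below. Marker lists of neutrophils, muscle and adipocytes stood lower in the KAT8-cKO-labelled library (medians of the log2 ratio -1.88, -2.38 and -3.64), and the sebaceous list was higher (2.16). Keratinocyte markers were abundant in both, with Krt5 at 12613 CPM in the library labelled KAT8-cKO and 8602 CPM in the library labelled WT. Krt14 stood at 12064.3 and 12586.5 CPM in the same order. The pan-keratinocyte list of 12 genes had a median log2 ratio of 0.01. Its single genes ran from -1.23 (Cd24a) to 0.55 (Krt5).

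Most kallikrein genes were less abundant in the library labelled KAT8-cKO, while Klk14 was more abundant and Klk11 was nearly level. The rule of size called a gene higher or lower where the log2 ratio of KAT8-cKO over WT, with 1 CPM added to each, was at least 1 in size. Of the 10 members 6 were lower (Klk5, Klk6, Klk7, Klk8, Klk9 and Klk13), 1 was higher (Klk14) and 3 lay within 2-fold (Klk10, Klk11 and St14). Over all measured genes 8.63% were lower and 4.56% were higher by the same rule, 1315 and 695 genes, or 1056 lower and 964 higher with plain CPM. The median log2 ratio was -1.24 over the 10 members and 0.01 over all measured genes. Summed over the 9 kallikreins, 631 CPM stood in the library labelled KAT8-cKO against 1423 CPM in the library labelled WT, 2.25-fold lower (interval 2.20 to 2.31). In bulk tissue, fewer cells of a type and less RNA per cell cannot be told apart.

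**Figure D1:**
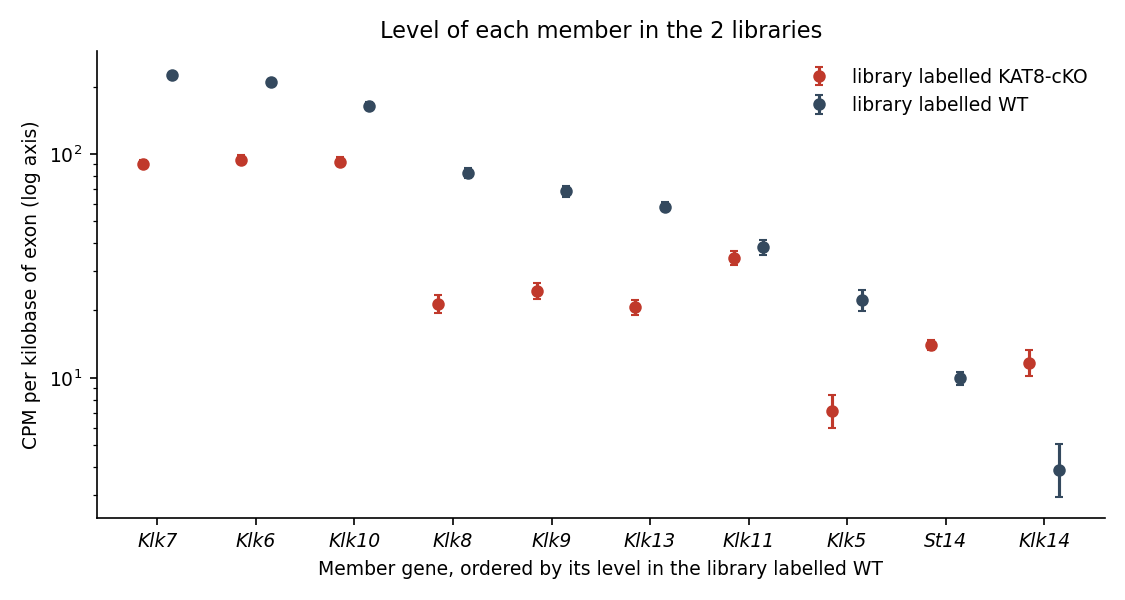
Level of each member gene in CPM per kilobase of exon on a log axis, in the library labelled KAT8-cKO (red, left) and the library labelled WT (dark, right), with bars for the exact 95% Poisson interval of the count. Klk7, Klk6 and Klk10 were the most abundant in both libraries, and Klk14 and St14 were the members that stood higher in the library labelled KAT8-cKO.

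Klk5 and Klk7 are the kallikreins best known for shedding, and both stood lower in the KAT8-cKO-labelled library. KLK5, a trypsin-like enzyme, can start the cascade by activating itself and other kallikrein precursors, as shown with the human proteins. Klk5 (ENSMUSG00000074155, chromosome 7 from 43841971 to 43851181 on GRCm38, plus strand) had 138 counts in the library labelled KAT8-cKO and 343 in the library labelled WT, or 9.51 and 29.8 CPM. That was 3.13-fold lower (interval 2.56 to 3.84). KLK7 is a chymotrypsin-like enzyme that cuts corneodesmosin. Klk7 (ENSMUSG00000030713, 43811294 to 43816359) had 2474 counts in the library labelled KAT8-cKO and 4936 in the library labelled WT, or 170 and 428 CPM, 2.51-fold lower (interval 2.39 to 2.64). The number of Klk5 counts per Klk7 count, a measure that does not depend on library scaling and was chosen after the values were seen, was 0.0558 in the library labelled KAT8-cKO and 0.0695 in the library labelled WT.

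Klk14 went the other way. KLK14 is a trypsin-like kallikrein that in human skin is active in the cornified layer and can activate the receptor PAR2. Klk14 (ENSMUSG00000044737, 43690418 to 43695536) had 215 counts in the library labelled KAT8-cKO and 57 in the library labelled WT, or 14.8 and 4.95 CPM, a ratio of 2.99 (interval 2.23 to 4.08). Per length, Klk14 stood at 11.7 CPM per kilobase in the library labelled KAT8-cKO, above Klk5 at 7.12, and at 3.89 CPM per kilobase in the library labelled WT, below every other member. Counts of Klk14 per count of Klk5 were 1.56 in the library labelled KAT8-cKO (interval 1.25 to 1.94) and 0.166 in the library labelled WT (0.123 to 0.220). Per count of Klk7 they were 0.0869 and 0.0115 in the same order, and both pairs were chosen after the values were seen. Exons of Klk14 overlap those of 2310002F09Rik on the other strand over 287 bases, and the labels do not say whether counting used strand. That transcript itself had 4 counts in the library labelled KAT8-cKO and 8 in the library labelled WT. Markers of appendages were higher in the same library as Klk14, where 4.56% of all measured genes were higher by the rule of size. Of 12 measured sebaceous genes 9 were higher and none lower, and their summed level was 9201 CPM in the library labelled KAT8-cKO and 3023 CPM in the library labelled WT. Of 8 measured hair follicle genes 4 were higher and none lower (summed level of the listed genes 108 and 51.9 CPM), and Shh, a defining gene of the growing follicle, had 2 and 0 counts. Their part in the Klk14 difference was not tested.

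Klk8 had the lowest ratio of the set, with an interval that overlapped that of Klk5. KLK8, or neuropsin, is a trypsin-like protease of skin and brain. Klk8 (ENSMUSG00000064023, 43797577 to 43803826) had 477 counts in the library labelled KAT8-cKO and 1465 in the library labelled WT, or 32.9 and 127 CPM, 3.87-fold lower (interval 3.49 to 4.30). Its exons overlap those of 2310002F09Rik over 382 bases. Klk6, whose trypsin-like product is also called neurosin, was the most abundant member per length in the library labelled KAT8-cKO. Klk6 (ENSMUSG00000050063, 43824499 to 43832030) had 2073 counts in that library and 3661 in the library labelled WT, or 143 and 318 CPM, 2.22-fold lower (interval 2.11 to 2.35). With plain CPM its log2 ratio was -0.99, just short of the rule of size.

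Klk9 and Klk13 lay between these values. Human KLK9 has chymotrypsin-like activity and human KLK13 trypsin-like activity. Klk9 (ENSMUSG00000047884, 43791891 to 43796757) had 524 counts in the library labelled KAT8-cKO and 1157 in the library labelled WT, 2.78-fold lower (interval 2.51 to 3.09). Klk13 (ENSMUSG00000054046, 43712567 to 43727534) had 690 counts in the library labelled KAT8-cKO and 1541 in the library labelled WT, 2.81-fold lower (interval 2.57 to 3.08). The intervals of Klk5, Klk9 and Klk13 overlapped, and that of Klk8 lay apart from those of Klk6, Klk7, Klk9 and Klk13.

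Klk10 and Klk11 were within 2-fold. KLK10 was first described in human breast epithelium. Klk10 (ENSMUSG00000030693, 43781035 to 43785410) had 1841 counts in the library labelled KAT8-cKO and 2590 in the library labelled WT, or 127 and 225 CPM, 1.77-fold lower (interval 1.67 to 1.88). Klk11, whose product is a trypsin-like enzyme, was nearly level. Klk11 (ENSMUSG00000067616, 43774604 to 43779263) had 730 counts in the library labelled KAT8-cKO and 647 in the library labelled WT, or 50.3 and 56.2 CPM, a ratio of 0.896 (interval 0.805 to 0.997), and its log2 ratio ran from -0.16 to 0.00 over the scalings tried, so no direction is given for it.

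St14, the upstream protease, was slightly more abundant in the library labelled KAT8-cKO. St14 (ENSMUSG00000031995, chromosome 9 from 31089402 to 31131853, minus strand) had 1558 counts in that library and 878 in the library labelled WT, or 107 and 76.2 CPM, a ratio of 1.41 (interval 1.296 to 1.53). It did not reach 2-fold under any scaling tried. Its exons add up to 7637 bases as a union over all transcripts, which can be longer than a single transcript. Divided by that length its level was low, at 14.1 CPM per kilobase in the library labelled KAT8-cKO and 9.98 in the library labelled WT. The low level per length thus depends on the length used.

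The order of levels per length differed between the libraries. In the library labelled KAT8-cKO, Klk6, Klk10 and Klk7 led at 94.4, 92.4 and 90.0 CPM per kilobase, and neighbours among these 3 did not differ beyond counting error. Klk11 (34.3) came next, followed by Klk9 (24.5), Klk8 (21.3) and Klk13 (20.7), where Klk9 and Klk8, and Klk8 and Klk13, also overlapped in their intervals. St14, Klk14 and Klk5 closed the order. In the library labelled WT the order was Klk7 (226), Klk6 (210), Klk10 (164), Klk8 (82.6), Klk9 (68.0), Klk13 (58.2), Klk11 (38.3), Klk5 (22.3), St14 (9.98) and Klk14 (3.89), and no neighbours overlapped in their counting intervals. Both orders rest on exon lengths taken as a union over all transcripts. By CPM alone, Klk13 (134) stood above Klk8 (127) in the library labelled WT. The spread between animals is unknown for both orders.

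**Figure D2:**
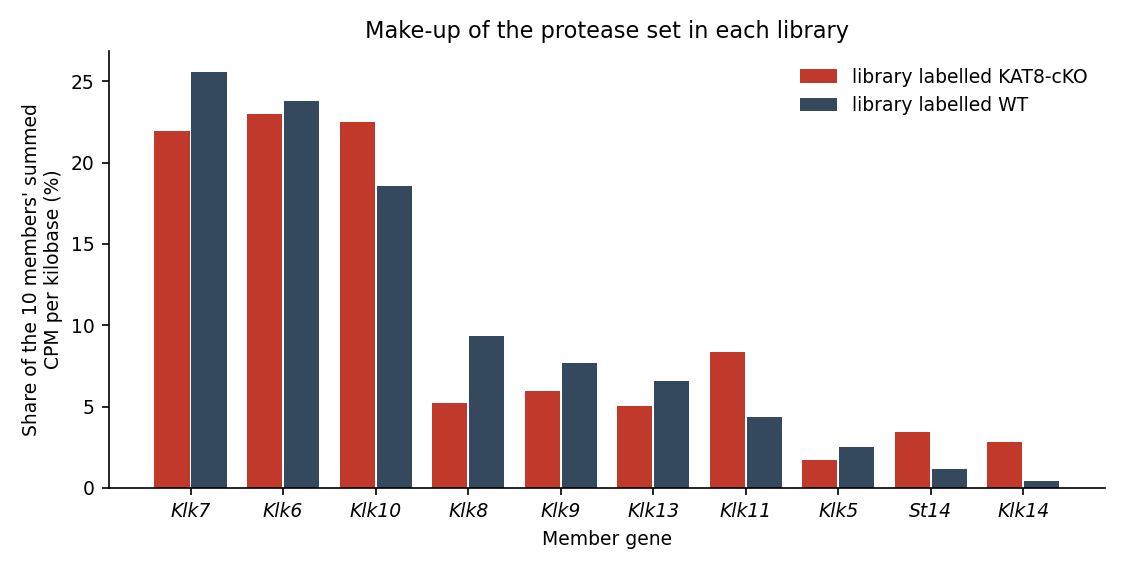
Share of each member in the 10 members' summed CPM per kilobase, in percent, for the library labelled KAT8-cKO (red, left) and the library labelled WT (dark, right). Klk11, Klk10, St14 and Klk14 took larger shares in the library labelled KAT8-cKO. Klk5, Klk7, Klk8, Klk9 and Klk13 took smaller ones, and Klk6 a slightly smaller one.

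The make-up of the set shifted accordingly. Klk8 made up 5.20% of the members' summed CPM per kilobase in the library labelled KAT8-cKO and 9.35% in the library labelled WT. Klk11 took 8.36% and 4.33% in the same order, Klk14 2.84% and 0.441%, and St14 3.43% and 1.13%. Klk7 took 21.9% in the library labelled KAT8-cKO and 25.6% in the library labelled WT, and Klk6 took 23.0% and 23.8% in the same order. The shares depend on the division by length, most of all for St14. Without it St14 made up 14.5% of the members' summed CPM in the library labelled KAT8-cKO and 5.08% in the library labelled WT.

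All 9 kallikrein members lie in a cluster on the plus strand of chromosome 7, spanning 161 kb from the start of Klk14 to the end of Klk5. The order of genes from there is Klk14, Klk13, Klk12, Klk11, Klk10, Klk9, Klk8, Klk7, Klk6 and Klk5. The gene with the highest ratio, Klk14, and the gene nearest to level, Klk11, are not neighbours. Klk13 lies between them, and so does Klk12, which is no member and had 16 counts in the library labelled KAT8-cKO and 47 in the library labelled WT, 3.70-fold lower (interval 2.06 to 6.99). From Klk11 to Klk8, a run picked after the values were seen, the ratio was lower at each gene in turn. The ratios were 0.896, 0.564, 0.360 and 0.258 for Klk11, Klk10, Klk9 and Klk8. Genes just outside the run broke this order, at 0.270 for Klk12 and 0.398, 0.449 and 0.319 for Klk7, Klk6 and Klk5. Outside the cluster, Ctu1, a gene of transfer RNA modification beyond Klk14, had 280 counts in the library labelled KAT8-cKO and 136 in the library labelled WT, a ratio of 1.63. Siglece, an inhibitory lectin receptor gene of myeloid cells beyond Ctu1, had 281 and 425 counts in the same order, a ratio of 0.525, and both were within 2-fold by the rule. The other 16 protein-coding kallikrein genes further along (Klk4, Klk15, Klk1 and the Klk1b group, which are near-identical copies among which reads may be split) were at or near 0 counts. Of them 14 had 0 counts in both libraries, and together they held 6 counts in the library labelled KAT8-cKO and 7 in the library labelled WT.

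**Figure D3:**
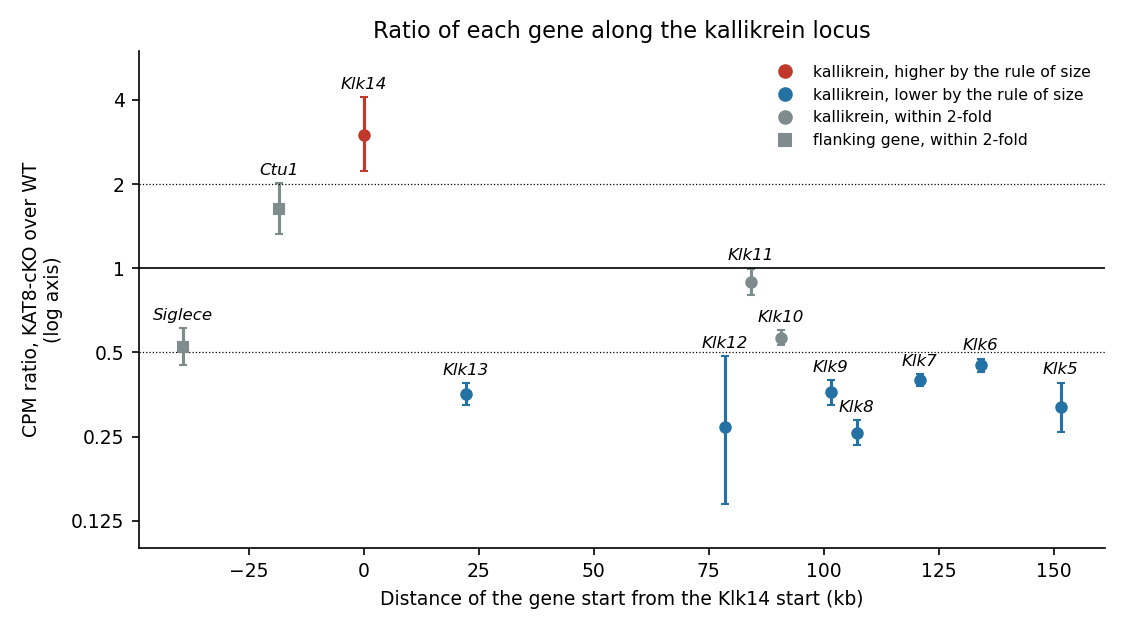
CPM ratio of KAT8-cKO over WT on a log axis against the distance of each gene start from the start of Klk14 in kb, with exact 95% intervals from counts. Solid and dotted lines mark a ratio of 1 and 2-fold differences, and Klk14 is the gene above the upper dotted line while Klk11 lies close to 1 amid lower neighbours.

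Promoter windows from RefSeq (GRCm38.p6, plus strand, 250 bases before to 50 after each start) matched the 9 kallikrein members with 11 windows. No window of St14 was among them. The bases before the start are shown for Klk14, the member that was higher, for Klk7, the member most abundant in the library labelled WT, for Klk8, the member with the lowest ratio, and for Klk10. Capitals mark the GCCNNNGGC and GTTAAAA motifs, and Klk14 and Klk7 hold no motif searched. The windows lie at chr7:43690168-43690417, chr7:43811044-43811293 and chr7:43797327-43797576, and for Klk10 the last 60 bases are given, chr7:43780994-43781053.
Klk14: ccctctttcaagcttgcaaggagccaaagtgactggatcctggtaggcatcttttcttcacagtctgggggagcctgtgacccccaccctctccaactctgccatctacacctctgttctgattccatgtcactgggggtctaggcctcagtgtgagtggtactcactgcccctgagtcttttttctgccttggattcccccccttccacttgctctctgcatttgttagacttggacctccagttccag
Klk7: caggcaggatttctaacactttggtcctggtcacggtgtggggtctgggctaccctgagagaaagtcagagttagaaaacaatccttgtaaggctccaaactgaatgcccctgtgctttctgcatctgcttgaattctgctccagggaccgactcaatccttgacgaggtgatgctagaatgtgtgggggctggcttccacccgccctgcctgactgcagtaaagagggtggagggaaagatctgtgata
Klk8: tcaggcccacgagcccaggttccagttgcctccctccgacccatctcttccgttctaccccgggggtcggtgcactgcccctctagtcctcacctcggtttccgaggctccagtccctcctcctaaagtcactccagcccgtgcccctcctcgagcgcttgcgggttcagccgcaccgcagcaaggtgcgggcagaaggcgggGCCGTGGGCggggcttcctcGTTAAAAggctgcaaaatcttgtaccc
Klk10: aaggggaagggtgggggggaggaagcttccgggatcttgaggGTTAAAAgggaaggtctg

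No kallikrein window held TATAAA, the core of a TATA box, or TGANTCA, the binding sequence of AP-1, on either strand. Of the 27025 genes with a window, 15.7% and 8.97% did. GCCNNNGGC, the binding sequence of AP-2 factors, was found in the windows of Klk8 and Klk9, against 18.5% of all genes. GTTAAAA, searched only after the windows had been read, was found in those of Klk10, Klk6 and Klk8, against 3.86% of all genes. It began 18 bases before the start in Klk10 and 27 bases before it in Klk8, and at 69 bases before a second start of Klk6. These matches describe letters and not bound sites.

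Of the 10 measured genes on the kallikrein inhibitor list 5 were lower, and on the matriptase inhibitor list none. The share over all measured genes, 8.63% lower and 4.56% higher, stands beside this and every list below. Whether each listed product acts on these proteases was not checked here. Spink5, which encodes LEKTI, had 2059 counts in the library labelled KAT8-cKO and 2784 in the library labelled WT, or 142 and 242 CPM, 1.70-fold lower (interval 1.61 to 1.80) and within 2-fold. Counts of Klk5 per count of Spink5 were 0.0670 in the library labelled KAT8-cKO and 0.123 in the library labelled WT, 1.84-fold lower (interval 1.49 to 2.27). Those of Klk7 were 1.20 and 1.77 in the same order, 1.48-fold lower (interval 1.37 to 1.59). The balance of Klk14 to Spink5 was the reverse, at 0.104 in the library labelled KAT8-cKO and 0.0205 in the library labelled WT, a ratio of 5.10 (interval 3.77 to 6.99). None of these within-library ratios depends on scaling.

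On the kallikrein inhibitor list 1 measured gene was higher besides the 5 that were lower (median log2 ratio -1.03). Spink12, another Kazal-type inhibitor gene, had 9 counts in the library labelled KAT8-cKO and 73 in the library labelled WT, 10.2-fold lower (interval 5.10 to 23.2). Slpi, a secreted inhibitor of neutrophil elastase that also inhibits KLK7, stood at 114 CPM in the library labelled KAT8-cKO and 455 CPM in the library labelled WT. Serpinb6c, a serpin gene, was 3.23-fold lower. The broad inhibitor gene A2m had 223 counts in the library labelled KAT8-cKO and 37 in the library labelled WT, a ratio of 4.78 (interval 3.37 to 6.97). Slpi is also made by myeloid cells, and 9 of 10 neutrophil genes were lower in the same library (summed level 5495 CPM in the library labelled KAT8-cKO and 15173 CPM in the library labelled WT, with none at 0). The part of neutrophils in the inhibitor values was not tested.

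St14 and Spint1 stood in nearly the same proportion in both libraries. Spint1, which encodes HAI-1, had 685 counts in the library labelled KAT8-cKO and 403 in the library labelled WT, or 47.2 and 34.98 CPM. Spint2, which encodes HAI-2, stood at 161 and 100.1 CPM in the same order, a ratio of 1.61 (interval 1.501 to 1.73). Counts of St14 per count of Spint1 were 2.27 in the library labelled KAT8-cKO and 2.18 in the library labelled WT, a ratio of 1.04 with an interval of 0.897 to 1.21 that includes 1. None of the 4 measured genes on the matriptase inhibitor list differed by 2-fold (median log2 ratio 0.36).

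Among the partners of matriptase and other membrane serine proteases no gene was higher by 2-fold. Prss8 encodes prostasin, which matriptase activates, and had 277 counts in the library labelled KAT8-cKO and 167 in the library labelled WT, a ratio of 1.32 (interval 1.08 to 1.60), with exons shared with Kat8. Of the 11 measured genes 3 were lower (median log2 ratio -0.56), against 8.63% of all measured genes. Prss22, named after its value was seen, had a ratio of 1.34 (interval 1.15 to 1.56). The lower ones, all of the HAT-like group of membrane proteases, were at low counts. Tmprss11f had 17 counts in the library labelled KAT8-cKO and 86 in the library labelled WT, Tmprss11a 6 and 43, and Tmprss11d 0 and 18. Tmprss11e of the same group, named after its value was seen, had more counts, 113 and 138 in the same order. It was within 2-fold, at a ratio of 0.65 (interval 0.50 to 0.84).

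Of 8 measured genes of corneodesmosomes and other desmosomes, which include substrates of the kallikreins, 5 were lower and none higher (median log2 ratio -1.38). Over all measured genes 8.63% were lower. Dsc1, a cadherin gene of the upper epidermis, stood at 32.0 CPM in the library labelled KAT8-cKO and 157 CPM in the library labelled WT. Dsg1a and Dsg1b, which encode desmoglein-1 forms that kallikreins cut and are close copies of each other, were 2.65-fold and 3.23-fold lower. Dsc2, a cadherin gene more broadly expressed, was 3.25-fold lower. Cdsn, the corneodesmosin gene and a KLK7 substrate, named after its value was seen, stood at 72.7 CPM in the library labelled KAT8-cKO and 188 CPM in the library labelled WT, 2.58-fold lower. The 3 genes within 2-fold, likewise named afterwards, were Dsg3 and Dsc3, cadherin genes of the lower layers with log2 ratios of -0.08 and -0.28, and Dsg1c, another desmoglein-1 form with 14 counts in the library labelled KAT8-cKO and 12 in the library labelled WT.

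Of 12 measured genes for signalling targets of these proteases 1 was higher and none lower by the rule of size. Over all measured genes 4.56% were higher and 8.63% lower, so this count does not set the list apart. Single genes lay on both sides of 0 (median log2 ratio -0.11). The higher gene was Epcam, an adhesion molecule that matriptase cuts, at 100.05 CPM in the library labelled KAT8-cKO and 35.3 CPM in the library labelled WT (ratio 2.83, interval 2.54 to 3.17). The growth factor receptor gene Egfr had a log2 ratio of 0.29. F2rl1, which encodes PAR2 and was named after its value was seen, had 499 counts in the library labelled KAT8-cKO and 247 in the library labelled WT, a ratio of 1.60 (interval 1.37 to 1.88). Also named afterwards were the cytokine gene Tslp and Camp, the antimicrobial cathelicidin gene. Tslp had 95 and 40 counts in the same order, a ratio of 1.89 (interval 1.29 to 2.80). Camp had 24 and 44 counts, 2.31-fold lower as a plain ratio (interval 1.37 to 3.97). Neutrophil genes were lower in the same library in 9 of 10 cases, and their part in the Camp value was not tested.

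The 6 lower kallikreins stood in a library where late epidermal differentiation genes were lower as well. Of the 24 measured genes on that list 12 were lower and none higher (median log2 ratio -1.03), against 8.63% and 4.56% of all measured genes. Their summed level was 4286 CPM in the library labelled KAT8-cKO and 9615 CPM in the library labelled WT, with none at 0. Ivl, which encodes the envelope precursor involucrin, stood at 43.5 CPM in the library labelled KAT8-cKO and 198 CPM in the library labelled WT. Rptn, Hrnr and Flg, of the fused S100 family, had log2 ratios of -3.95, -2.87 and -2.42, whereas Flg2 of the same family, and Krt2, Lce1b and Calml3, all named after their values were seen, had ratios of -0.07, -0.07, -0.08 and -0.06 on the same scale. With plain CPM 9 genes of the list were lower and its median was -0.87. The median of the 9 kallikreins was -1.32. Of 8 basal keratinocyte genes 3 were higher and 1 lower (median 0.81). The pan-keratinocyte genes had a median CPM ratio of 1.004, so scaling to them left the values of the members almost as they were. How far the part of granular cells in the tissue bears on the kallikrein values was not tested.

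**Figure D4:**
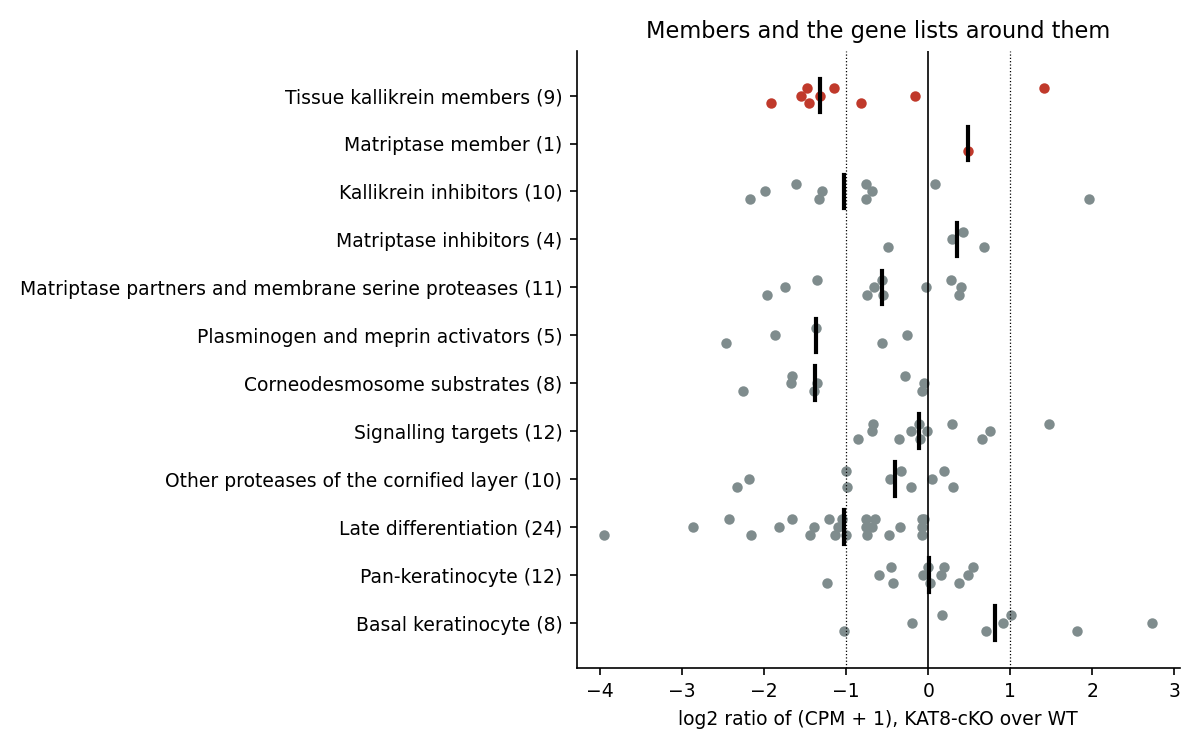
Log2 ratio of (CPM + 1), KAT8-cKO over WT, for each measured gene of the members (red) and of the lists around them (grey), with a black bar at the median and the number of measured genes in brackets. The medians of the kallikreins, their inhibitors, the plasminogen list, the corneodesmosome list and the late differentiation list lie beyond the dotted line at -1 (those of the inhibitors and of late differentiation were -0.89 and -0.87 with plain CPM), and the pan-keratinocyte median lies at 0.01.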

How the data were processed

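The authors deposited 1 column of unnormalized counts for each genotype, per the file headers, with Ensembl genes in rows. Per the submitters' processing notes, HISAT2, StringTie 1.3.0, edgeR and mm10 were used, in roles not stated. The counting tool, its annotation and its strand setting are likewise not given in the sources used here. Symbols, positions and exon lengths (the union over all transcripts) came from GENCODE M21 on GRCm38, and 34344 genes had a symbol.

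CPM were counts over the effective library size, which is the total multiplied by a TMM factor (1.06 for the library labelled KAT8-cKO, 0.946 for the library labelled WT; edgeR 4.0.16, R 4.3.3). At this depth 1 count was 0.0689 and 0.0868 CPM in the same order. Log2 ratios used a pseudocount of 1 CPM, which understates differences of low genes, and folds are plain CPM ratios with exact Clopper-Pearson 95% intervals (scipy 1.17.1), and odds-ratio intervals for ratios of ratios. Since reads carried no molecular identifiers, they need not be independent molecules. With 1 library per group no test was run. DESeq2 1.42.0 supplied size factors only, as an alternative.

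The members and lists were chosen with earlier results of these data known. All members were named, with up to 4 genes per pathway list that differed most by at least 2-fold, or else its 2 most abundant genes, and Kat8, Spink5, Spint1, Spint2 and Prss8. Some genes that this rule takes are not reported here. Protein sequences were not used here. On simulated Poisson counts for 34745 genes with 200 changed, the rule recovered 94.2% of genes changed 2.5-fold and 100% of those changed 4-fold or 8-fold, and called 1 of 14801 unchanged genes. The changed genes were drawn from those with a mean of at least 5 CPM and went up or down at random. The rates thus do not cover less abundant genes, or libraries where more genes were lower than higher, as here. This simulation holds counting error alone and says nothing of the spread between mice.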

Additional observations from a re-analysis of the deposited data

How the results depend on the processing

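The alternatives were plain CPM, DESeq2 size factors, totals without the 50 most abundant genes, a pseudocount of 0.1, no filter, a filter of 5 CPM, scaling to pan-keratinocyte genes and leaving out genes that share exons (for the members this last was chosen after seeing the data). Of the members 6 were lower under each, except 5 with plain CPM, where Klk6 dropped out, and 5 without genes that share exons, where Klk8 is left out. Klk14 was higher under each that kept it, with a log2 ratio of 1.41 to 1.56, and without genes that share exons 0 members were higher, because Klk14 is one of them. Over all genes 1056 were lower with plain CPM and 1722 with a pseudocount of 0.1, the fewest and the most among the settings where this was counted. Plain CPM shifted the median of all measured genes by 0.15 (log2), to 0.16. Of the lists, signalling targets had 1 lower gene with a pseudocount of 0.1. With a filter of 5 CPM the membrane proteases had 1 lower gene and the other kallikrein genes 0, since fewer genes were tested. Without genes that share exons the kallikrein inhibitors had 3 lower genes. The medians of the inhibitors and of late differentiation were -0.95 and -0.92 without the 50 most abundant genes and -0.76 and -0.88 without genes that share exons, and the plasminogen median was -0.41 with no filter and -0.97 without genes that share exons. Klk6, Klk7 and Klk10 together made up 67.4% of the members' CPM per kilobase in the library labelled KAT8-cKO and 67.9% in the library labelled WT, and 59.6% and 64.8% of their CPM without division by length. No paired analysis was possible because each group holds 1 library, and for the same reason no replicate could be left out. The depth limits genes at low counts, such as Klk12 and the Tmprss11 genes, whose intervals are wide.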

Other observations

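Of 10 measured genes on the list of other proteases of the cornified layer 3 were lower and none higher in the library labelled KAT8-cKO (median log2 ratio -0.40). The list also holds Cst6, a protease inhibitor gene (log2 ratio 0.31). It further holds Prtn3, a neutrophil protease gene with 25 counts in the library labelled KAT8-cKO and 16 in the library labelled WT. Asprv1, an aspartic protease that processes profilaggrin, stood at 159 CPM in the library labelled KAT8-cKO and 807 CPM in the library labelled WT, 5.06-fold lower (interval 4.83 to 5.30). Casp14, the caspase of cornification, stood at 49.7 CPM in the library labelled KAT8-cKO and 231 CPM in the library labelled WT, 4.64-fold lower (interval 4.27 to 5.04). Blmh, a peptidase that breaks filaggrin down to amino acids, was 2.01-fold lower, at the edge of the rule, and 2 genes of the list were lower with plain CPM, with DESeq2 size factors or without the 50 most abundant genes. The lysosomal protease gene Ctsd, named after its value was seen, stood at 1097 CPM in the library labelled KAT8-cKO and 1063 CPM in the library labelled WT, and Ctsl, another lysosomal protease gene named afterwards, was 1.99-fold lower (log2 ratio -0.99).

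In the plasminogen activation and meprin list, 3 of 5 measured genes were lower and none higher (median log2 ratio -1.36). Serpinb2, an inhibitor of the plasminogen activators, was 5.57-fold lower, and Plaur, the receptor of urokinase, was 3.69-fold lower. Plau, the urokinase gene itself, named after its value was seen, had 969 counts in the library labelled KAT8-cKO and 919 in the library labelled WT (log2 ratio -0.25). Plaur is also expressed by myeloid cells, and 5 of 10 macrophage genes were lower in the same library (summed level 1173 CPM in the library labelled KAT8-cKO and 2931 CPM in the library labelled WT). Their part in these values was not tested.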
